A study of Mus musculus with 6 samples.

Results

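Semaphorins, plexins and neuropilins form one of the large guidance-signal systems of vertebrates. Their mRNAs were measured here in mouse melanoma cells labelled WT or Ythdf2-KO, Ythdf2 being the gene of the m6A reader YTHDF2. The members were all gene symbols of the count table that name a semaphorin of classes 3 to 7, a plexin or a neuropilin. This gave 31 of the 56734 symbols, made up of 20 semaphorins, 9 plexins and 2 neuropilins. Polyadenylated RNA came from B16-OVA, a B16 melanoma line made to express the model antigen ovalbumin, with 3 WT and 3 Ythdf2-KO libraries. YTHDF2 binds mRNAs that carry N6-methyladenosine (m6A) and promotes their decay, and the study asks what this reader does inside tumor cells that evade immunity. The sample titles tag WT with gNC and Ythdf2-KO with gY2. Whether the knockout cells were 1 clone or a pool, and whether replicates were separate cultures, is not stated in the labels, and p-values therefore measure the spread between these libraries, which may be technical.

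Semaphorins are secreted or membrane-bound ligands that steer growth cones, vessels and migrating cells, mostly by making them retract. Plexins are their receptors, and the plexin's inner part switches off small GTPases of the R-Ras and Rap type, which loosens adhesion and the actin skeleton. Most secreted class 3 semaphorins cannot bind a plexin alone and need a neuropilin as the binding subunit, while the neuropilins also bind growth factors of the VEGF family. In the melanocyte lineage, which comes from the neural crest, semaphorins and neuropilins are known for guiding the migrating precursor cells.

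The libraries held 55660473 to 69497273 counts, and 17718 genes had enough counts to be tested. Ythdf2 mRNA measured 124, 124 and 125 TMM-scaled CPM (counts normalised to library size) in WT replicates 1 to 3, against 100.0, 100.5 and 104 CPM in knockout replicates 1 to 3. It was lower in all 3 knockout libraries (edgeR adjusted p = 4.08e-13), although 0.816 times the WT level remained and the call was lost against a minimum fold of 1.2 (glmTreat in edgeR, adjusted p = 0.171). YTHDF2 protein was not measured, and the mRNA level does not show whether the protein was lost. All 7 melanocyte markers rose, and their summed level went from 237 to 241 CPM in the WT libraries to 1400 to 1431 CPM in the knockout libraries. Markers of neurons and Schwann cells summed to 22.8 to 23.3 CPM in WT, against 63.2 to 65.3 CPM in the knockout. In that list 4 of 4 tested markers rose and Snap25 had at most 3 counts in any library. Of 6 fibroblast markers, 3 rose and 2 fell among 5 tested, with sums of 3201 to 3302 and 3503 to 3559 CPM. Most of these sums was Col6a3, which rose, as did Pdgfrb and Fap (log2 fold changes of 0.32, 0.57 and 2.37). Dcn and Lum fell, by log2 fold changes of -3.55 and -1.36. Of 6 endothelial markers, 2 were tested and 1 fell; the sums were 2.59 to 2.66 and 1.86 to 2.16 CPM, and Emcn had no count. Leukocyte markers summed to 38.7 to 40.1 and 37.4 to 40.2 CPM, with 2 of 4 tested higher and 2 lower; 1 knockout library, replicate 3, held 1.07 CPM of Ptprc against at most 0.0916 CPM in the others. Epithelial markers summed to at most 0.600 CPM. The RNA quality measures also moved, with 4 of 5 higher in Ythdf2-KO, among them mt-Nd1 at 1093 to 1352 CPM in WT, against 1986 to 2245 CPM in the knockout. The part of these differences in the results on guidance genes was not tested. In bulk RNA, a change in the share of cells and a change in RNA per cell cannot be told apart.

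More members rose than fell. Of the 30 members tested, 17 rose and 7 fell in Ythdf2-KO (quasi-likelihood test of edgeR at a Benjamini-Hochberg adjusted p under 0.05 over all genes). Among all genes tested, 24.1% were called higher and 25.8% lower, 49.9% in either direction. The members' median log2 fold change was 0.41, against -0.0053 over all tested genes. At least 2-fold higher were 9 members, beside 6.16% of all genes, and at least 2-fold lower none, beside 3.38% of all genes. In 17 members every knockout library lay above every WT library, beside 26.9% of all genes, and in 7 every knockout library lay below, beside 28.9% of all genes; in either direction the share of all genes was 55.9%. Sema5b, with 2, 0 and 0 counts in WT and 2, 2 and 0 in Ythdf2-KO, was at or under a floor of 3 counts in every library and was not tested. The members' longest protein-coding transcripts were long, with a median of 5980 bases against 2706 for all tested genes with a transcript. With offsets for length and GC content 17 members rose and 9 fell, and their median log2 fold change was 0.31. With the same offsets 3922 of all 17718 genes were called higher and 5130 lower, and the median over all genes was -0.020.

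**Figure D1:**
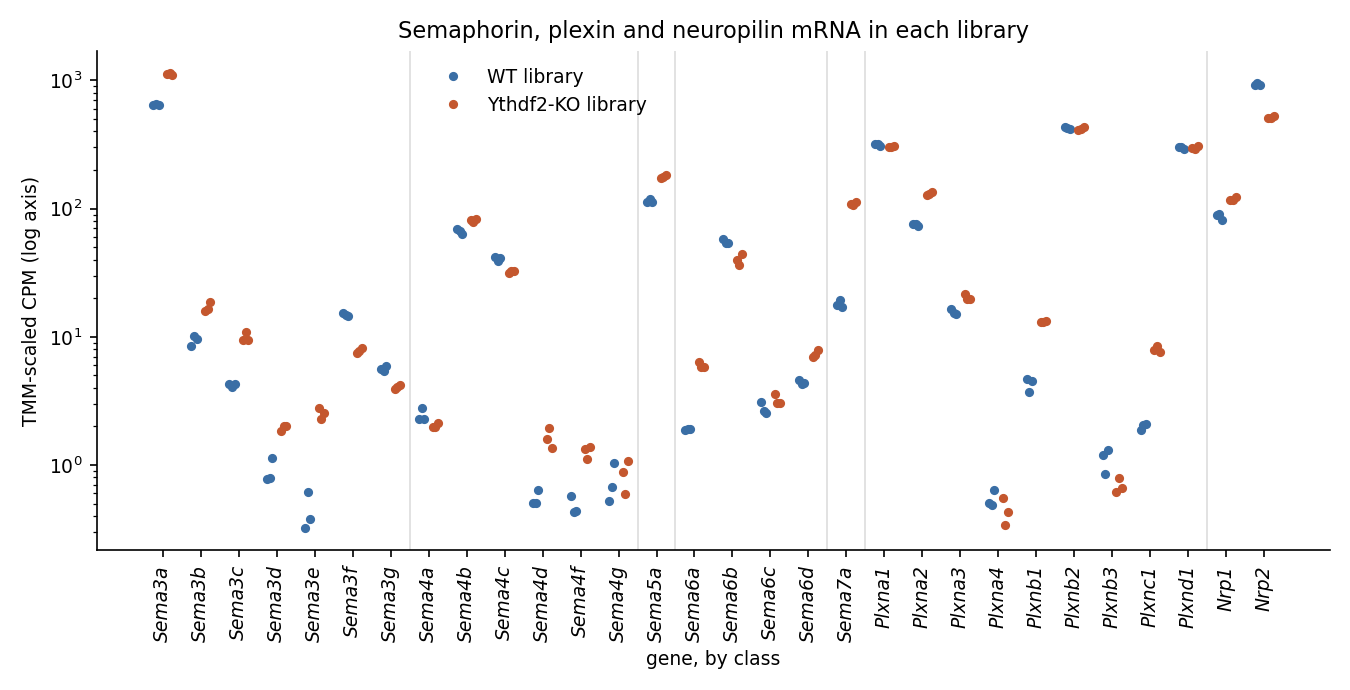
TMM-scaled CPM of the 30 tested members in each of 6 libraries (log axis), grouped by class. WT libraries are blue and Ythdf2-KO libraries orange; the libraries of a genotype lie close together, and in 17 genes all orange points are above the blue ones.

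The largest rises were in a ligand and its receptor, Sema7a and Plxnc1, and in the secreted ligand Sema3e. Their promoters are shown because these 3 genes had the largest fold changes among members that reached 1 CPM. Each line gives the 250 bases before the start used in RefSeq's promoter table on GRCm38.p6, a different build from that of the counts, read 5′ to 3′ on the gene's strand. They lie at chr9:57939862-57940111 (plus strand) for Sema7a, chr5:14025026-14025275 (plus strand) for Sema3e and chr10:94944846-94945095 (minus strand) for Plxnc1. RefSeq's full gene range begins further upstream for Sema7a and inside the printed window for Plxnc1, so these windows hold sequence before 1 of the possible starts. Capitals mark matches, on either strand, to 4 motifs: the E-boxes CATGTG and CACGTG, which MITF-type factors can bind, the AP-1 motif TGANTCA and the GC box GGGCGG.
Sema7a: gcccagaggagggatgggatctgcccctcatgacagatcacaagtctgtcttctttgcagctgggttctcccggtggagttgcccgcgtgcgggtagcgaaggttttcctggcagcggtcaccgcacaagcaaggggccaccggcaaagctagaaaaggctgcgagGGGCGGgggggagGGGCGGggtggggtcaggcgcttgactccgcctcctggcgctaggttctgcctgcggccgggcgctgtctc
Sema3e: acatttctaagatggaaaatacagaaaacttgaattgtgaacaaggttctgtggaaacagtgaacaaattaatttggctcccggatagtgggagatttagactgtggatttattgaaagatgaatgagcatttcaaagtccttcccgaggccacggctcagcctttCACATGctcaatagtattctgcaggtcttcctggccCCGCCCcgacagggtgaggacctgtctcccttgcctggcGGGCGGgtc
Plxnc1: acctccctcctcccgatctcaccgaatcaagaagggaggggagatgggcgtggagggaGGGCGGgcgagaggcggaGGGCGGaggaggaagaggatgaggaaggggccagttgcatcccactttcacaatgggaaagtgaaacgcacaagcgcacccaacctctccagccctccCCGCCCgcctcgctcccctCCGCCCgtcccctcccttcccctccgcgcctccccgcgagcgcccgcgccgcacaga
All 3 windows held GC boxes, a motif present in 32.7% of the 32851 windows of this length in the RefSeq table and in 21 of the 26 members that have an entry there. Sema3e alone of those members held the E-box CATGTG, beginning 84 bases before the start; 12.3% of all windows hold it. CACGTG was found in the windows of Sema4b and Sema6d, and in 6.02% of all windows. TGANTCA was found in those of Sema4c, Sema4d and Sema6b, and in 6.75% of all windows. A match is a run of letters and does not show that a factor binds there.

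Sema7a and Plxnc1 rose together. SEMA7A is the only semaphorin held on the membrane by a lipid anchor, and it signals through plexin C1 and through integrins with the beta-1 chain. Sema7a measured 17.6, 19.4 and 17.1 CPM in WT replicates 1 to 3, against 109, 108 and 114 CPM in knockout replicates 1 to 3. The genotypes were far apart, and the rise was 6.11-fold (log2 fold change 2.61 ± 0.0393, SE, n = 3 per group; edgeR adjusted p = 3.84e-41). Plxnc1 stood at 1.87, 2.06 and 2.10 CPM in WT, against 7.83, 8.53 and 7.68 CPM in the knockout. Every knockout library was above every WT library, and the rise was 3.97-fold (log2 fold change 1.99 ± 0.114, SE; edgeR adjusted p = 1.08e-19). Itgb1, which encodes the integrin beta-1 chain, fell 1.11-fold, from 1172 ± 14.5 to 1057 ± 8.20 CPM (SD, n = 3).

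**Figure D2:**
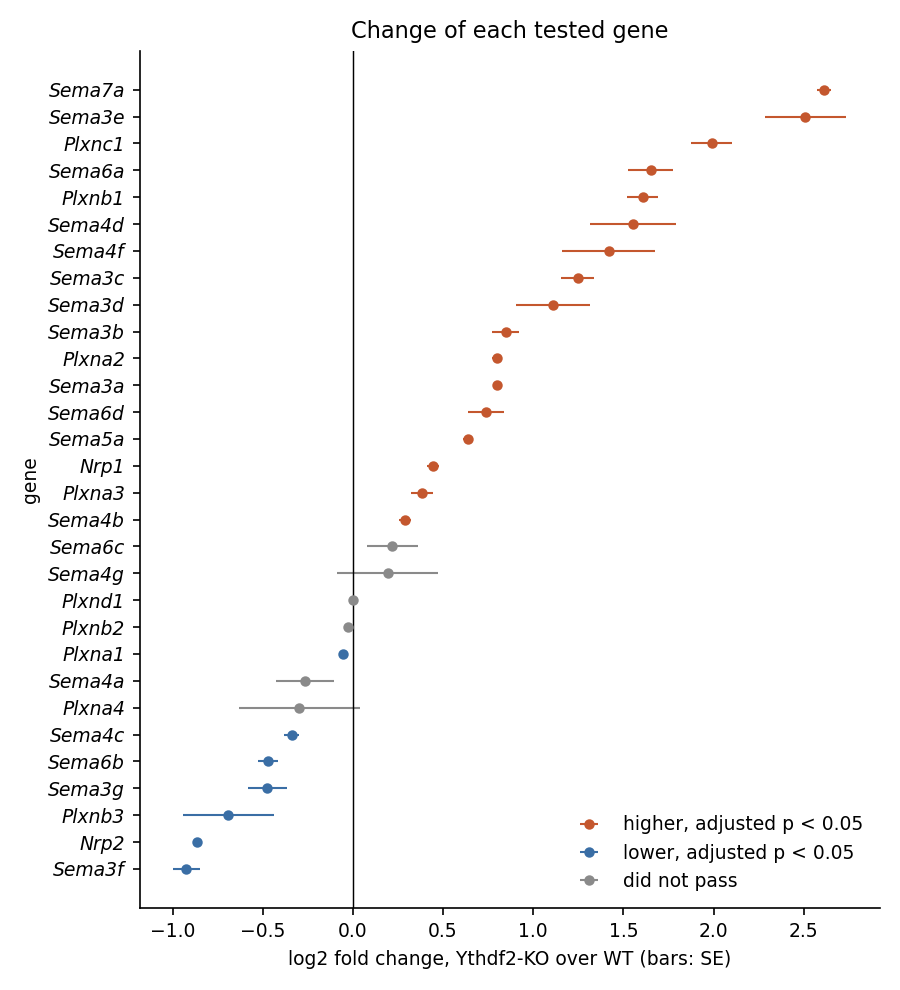
Log2 fold change of Ythdf2-KO over WT for the 30 tested members, with bars of 1 SE. Orange genes passed the test as higher, blue ones as lower and grey ones did not pass; Sema7a and Sema3e lie at the top with 2.61 and 2.51, and Sema3f lies at the bottom with -0.92.

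All 7 secreted class 3 semaphorins changed, 5 upward and 2 downward, beside 49.9% of all tested genes called in either direction. Sema3a, which encodes the classic growth-cone repellent that binds neuropilin-1, was the most abundant semaphorin mRNA in both genotypes. It stood at 638, 655 and 645 CPM in WT, against 1122, 1134 and 1110.2 CPM in the knockout, a rise of 1.74-fold (log2 fold change 0.80 ± 0.0200, SE; edgeR adjusted p = 3.11e-33). The gap between the genotypes was many times the spread among their libraries. Sema3e, whose product binds plexin D1 without a neuropilin, had low levels of 0.324, 0.611 and 0.379 CPM in WT, against 2.76, 2.27 and 2.53 CPM in the knockout. This was a rise of 5.69-fold (log2 fold change 2.51 ± 0.226, SE; edgeR adjusted p = 4.09e-13), with no overlap between the genotypes.

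Sema3c, which encodes a ligand of both neuropilins, was at 4.26, 4.08 and 4.29 CPM in WT, against 9.52, 10.9 and 9.52 CPM in the knockout, 2.37-fold higher (edgeR adjusted p = 1.04e-15). Sema3d was at 0.774, 0.794 and 1.14 CPM in WT, against 1.83, 2.02 and 2.02 CPM in the knockout, 2.16-fold higher (edgeR adjusted p = 1.16e-05). For both genes the lowest knockout library exceeded the highest WT library. Sema3b rose 1.80-fold, from 9.40 ± 0.841 to 17.0 ± 1.39 CPM (SD, n = 3; edgeR adjusted p = 1.60e-13).

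Sema3f and Sema3g went the other way. Sema3f, which encodes the preferred ligand of neuropilin-2, was at 15.2, 14.8 and 14.5 CPM in WT, against 7.43, 7.80 and 8.24 CPM in the knockout. All knockout libraries were below all WT libraries, and the fall was 1.90-fold (log2 fold change -0.92 ± 0.0735, SE; edgeR adjusted p = 8.61e-15). Sema3g, whose product also binds neuropilin-2, fell 1.39-fold, from 5.65 ± 0.267 to 4.07 ± 0.148 CPM (SD, n = 3; edgeR adjusted p = 2.16e-04).

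The 2 neuropilins also moved in opposite directions. Nrp2, the more abundant receptor subunit, stood at 926, 959.6 and 917 CPM in WT, against 507, 511 and 524 CPM in the knockout. It fell 1.82-fold (log2 fold change -0.86 ± 0.0212, SE; edgeR adjusted p = 1.37e-33). Nrp1 stood at 89.7, 91.2 and 81.9 CPM in WT, against 117, 118 and 123 CPM in the knockout, a rise of 1.36-fold (log2 fold change 0.45 ± 0.0327, SE; edgeR adjusted p = 5.75e-13). Neither gene's genotypes overlapped. Per kilobase of exon, Nrp2 exceeded Nrp1 by 8.53, 8.69 and 9.25 times in the WT libraries and by 3.58, 3.58 and 3.51 times in Ythdf2-KO. The lengths were unions of the exons of all transcripts, 11842 bases for Nrp2 and 9785 for Nrp1. Their longest protein-coding transcripts have 6723 and 3597 bases, so the size of these factors depends on the length used. Nrp2 was the more abundant of the pair in every library, by a smaller factor in the knockout libraries.

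**Figure D3:**
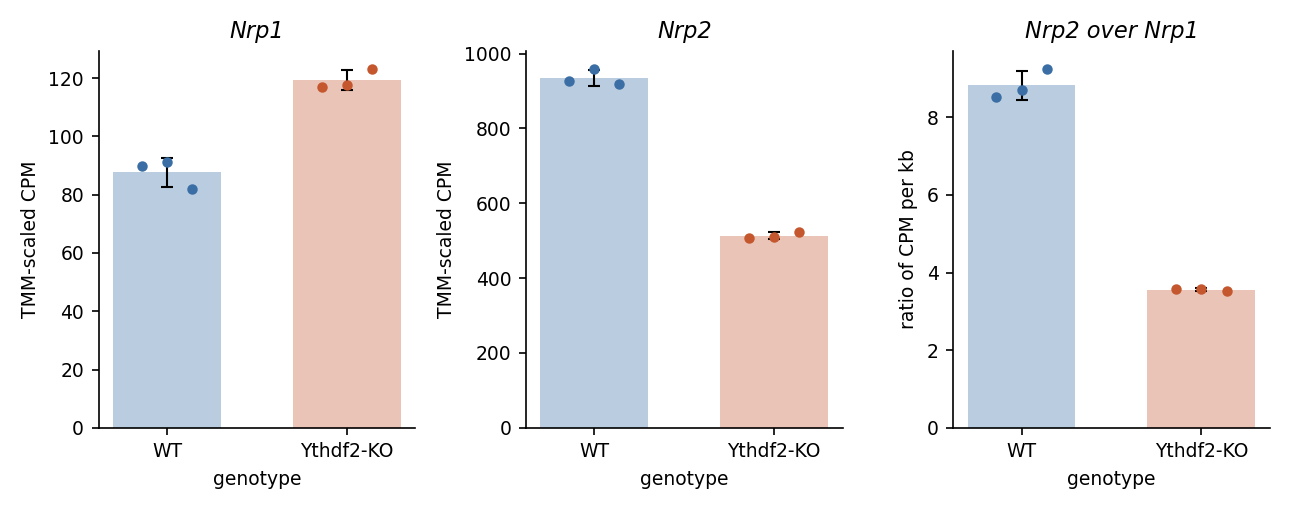
CPM of Nrp1 and of Nrp2, and the ratio of Nrp2 to Nrp1 per kilobase of exon, by genotype. Bars are means of 3 libraries, error bars are SD and points are libraries; the ratio goes from a mean of 8.82 in WT to 3.56 in Ythdf2-KO.

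Of the 12 tested semaphorins held on the membrane (classes 4 to 7), 7 rose, 2 fell and 3 did not pass. The shares of all tested genes were 24.1% higher and 25.8% lower. Besides Sema7a, the rises included Sema6a, a transmembrane ligand of class A plexins, at 1.89, 1.92 and 1.91 CPM in WT, against 6.35, 5.83 and 5.82 CPM in the knockout. This was 3.14-fold higher (edgeR adjusted p = 1.04e-15), with a knockout level far outside the WT range. Sema6d rose 1.67-fold, from 4.40 ± 0.183 to 7.33 ± 0.497 CPM (SD, n = 3). Sema5a, which carries thrombospondin repeats next to its semaphorin domain, was abundant and rose 1.56-fold, from 115 ± 4.13 to 179 ± 4.89 CPM (SD, n = 3; edgeR adjusted p = 2.62e-24).

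In class 4 the directions differed from gene to gene. Sema4d, which encodes the plexin B1 ligand better known from lymphocytes, rose 2.93-fold between low levels, from 0.504, 0.504 and 0.642 CPM in WT to 1.59, 1.93 and 1.36 CPM in Ythdf2-KO (edgeR adjusted p = 3.77e-07). Sema4f rose 2.67-fold from 0.480 ± 0.0828 to 1.28 ± 0.142 CPM, and Sema4b 1.22-fold from 66.5 ± 2.58 to 81.1 ± 2.33 CPM (SD, n = 3). Sema4c, which encodes a plexin B2 ligand, fell 1.27-fold, from 40.9 ± 1.37 to 32.3 ± 0.945 CPM, and in class 6 Sema6b fell 1.38-fold, from 55.5 ± 2.34 to 40.0 ± 3.72 CPM (SD, n = 3). The calls of Sema4b and Sema4c were lost when the fold change was tested against a minimum of 1.2 (glmTreat in edgeR, adjusted p = 0.289 and 0.0504). Sema4a, Sema4g and Sema6c fell short of the threshold, at log2 fold changes of -0.26 ± 0.161, 0.19 ± 0.278 and 0.22 ± 0.141 (SE). The knockout libraries of Sema4a all lay below the WT libraries, at 1.99 to 2.14 against 2.28 to 2.76 CPM, and those of the other two overlapped with WT.

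Among the 9 plexins, which differed in level over more than 3 orders of magnitude per kilobase, 4 rose, 2 fell and 3 did not pass. Of all tested genes 24.1% were called higher and 25.8% lower. Plxnb1, which encodes the SEMA4D receptor that can partner with MET, was at 4.71, 3.69 and 4.52 CPM in WT, against 12.9, 13.0 and 13.4 CPM in the knockout. It rose 3.04-fold (log2 fold change 1.61 ± 0.0885, SE; edgeR adjusted p = 2.87e-20), with no overlap. Plxna2, which encodes a receptor for class 6 semaphorins and, with neuropilins, for class 3, rose 1.74-fold, from 74.9 ± 1.59 to 130.4 ± 4.30 CPM (SD, n = 3). Plxna3 was 1.30-fold higher, rising from 15.6 ± 0.712 to 20.4 ± 0.940 CPM (SD, n = 3).

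The 3 most abundant plexins stayed within 1.04-fold of WT. Plxnb2 was at 437, 428 and 416 CPM in WT, against 409.6, 418 and 431 CPM in the knockout, and Plxnd1, the SEMA3E receptor, at 304, 303 and 291 CPM in WT, against 299, 292 and 308 CPM in the knockout. The genotypes overlapped in both, and neither passed (log2 fold changes of -0.026 ± 0.0225 and 0.00095 ± 0.0230, SE). The result of each gene changed under some alternatives. Plxnd1 passed as higher with upper-quartile factors (log2 fold change 0.055, edgeR adjusted p = 0.0215). With the length and GC offsets Plxnd1 passed as lower (-0.14, edgeR adjusted p = 3.74e-07). Plxnb2 passed as lower with those offsets (-0.14, edgeR adjusted p = 8.66e-08) and when both replicates 3 were left out (-0.064, edgeR adjusted p = 0.0321). Plxna1, at 319.7, 322 and 306 CPM in WT, against 301, 303 and 307 CPM in the knockout, overlapped between the genotypes but passed as 1.04-fold lower (edgeR adjusted p = 0.0323). That call was lost with upper-quartile factors (edgeR adjusted p = 0.938) and with 12 of the other 17 alternatives, among them leaving out WT replicate 1 or 2 or Ythdf2-KO replicate 1 or 2.

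The scarce Plxnb3 had 1.19, 0.855 and 1.30 CPM in WT, against 0.614, 0.793 and 0.664 CPM in the knockout and passed as 1.61-fold lower (edgeR adjusted p = 0.0200). This call was lost without any one of WT replicates 1 and 3 and Ythdf2-KO replicates 1 and 3 (edgeR adjusted p = 0.0612, 0.114, 0.0776 and 0.0566). Plxna4 was at 0.545 ± 0.0845 CPM in WT, against 0.443 ± 0.108 CPM in the knockout (SD, n = 3), without passing. The table also holds antisense genes of Plxna4, and without known strand settings their reads cannot be told apart from its own.

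Levels were set against each other per kilobase of exon, with exon lengths from GENCODE on GRCm38. The length was the union of the exons of all transcripts of a gene. For Sema3a this was 13868 bases, against 5930 in its longest protein-coding transcript, and for Sema7a 3298 against 3297. Shares and ranks between genes depend on this choice, and the SD does not cover it. Other lengths were not tried. On this scale Sema3a led the semaphorins at 46.6 ± 0.600 CPM per kb in WT and 80.9 ± 0.869 in Ythdf2-KO (SD, n = 3). Sema7a moved from rank 6 of 20, at 5.47 CPM per kb, to rank 2, at 33.4 CPM per kb. Its share of the summed semaphorin level went from 5.39 ± 0.315% to 20.1 ± 0.322% (SD, n = 3), while the share of Sema3a was 45.9 ± 0.680% and 48.7 ± 1.09%. Sema6b went from rank 2 to rank 4 and Sema4c from rank 4 to rank 6. Among the plexins the order was the same in both genotypes, with Plxnb2 first at 55.3 and 54.4 CPM per kb, then Plxnd1 and Plxna1. Plxnc1 held only 0.174% of the summed plexin level in WT and 0.678% in Ythdf2-KO, and ranked 7 of 9 in both.

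**Figure D4:**
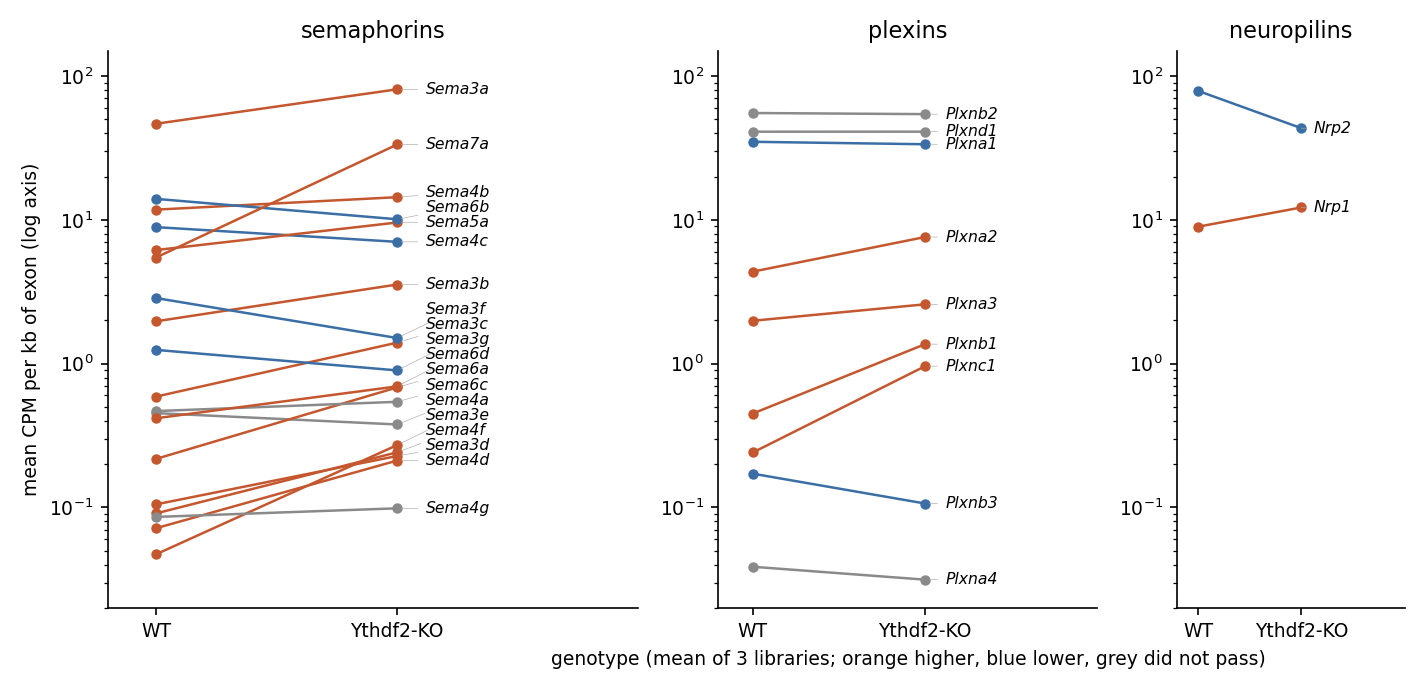
Mean CPM per kilobase of exon (log axis) in WT and Ythdf2-KO for semaphorins, plexins and neuropilins, each line 1 gene and each point the mean of 3 libraries. Orange lines passed as higher, blue ones as lower and grey ones did not pass; Sema7a crosses several other semaphorins, and the plexins keep their order.

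The class 3 genes that rose include 4 in the same stretch of chromosome 5. RefSeq's order there is Sema3d, Sema3a, Sema3e and Sema3c, with other genes between them. Of the 7 other protein-coding genes tested in that stretch, 3 rose, 1 fell and 3 did not pass. The fall was in Hgf, the gene of the MET ligand, between Sema3e and Sema3c: it went from 114 ± 0.589 to 68.3 ± 2.45 CPM (SD, n = 3; log2 fold change -0.74). Cacna2d1, which encodes a calcium channel subunit, lies beside Hgf, had 49.9 CPM in WT, 52.4 CPM in the knockout, and no call. The 3 that rose were scarce: Pclo reached 0.395 CPM, and Speer3 and Gm6650 reached 2.64 and 2.28 CPM, the Speer genes being a family of near-identical copies that can share reads. Just outside the stretch, Cd36 follows Sema3c and also rose, from 0.282 CPM in WT to 0.826 CPM in the knockout (log2 fold change 1.54, edgeR adjusted p = 9.49e-05). Over all of chromosome 5, 21.8% of 1165 tested genes rose and 25.6% fell, the median log2 fold change being -0.030.

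On chromosome 9 Sema3b and Sema3f are near neighbours that moved in opposite directions, with log2 fold changes of 0.85 and -0.92. Between them lie Gnai2, which encodes an inhibitory G protein subunit and rose by a log2 fold change of 0.070, and Slc38a3, at 0.498 CPM in WT, which did not pass. Gnat1 also lies there and was not tested. The genes next outward did not pass. Beyond Sema3f these were Rbm5 and Rbm6, at log2 fold changes of 0.022 and -0.029. On the other side they were Lsmem2, at 0.47 between low levels of 0.231 and 0.316 CPM (edgeR adjusted p = 0.418), and Ifrd2, at -0.014.

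**Figure D5:**
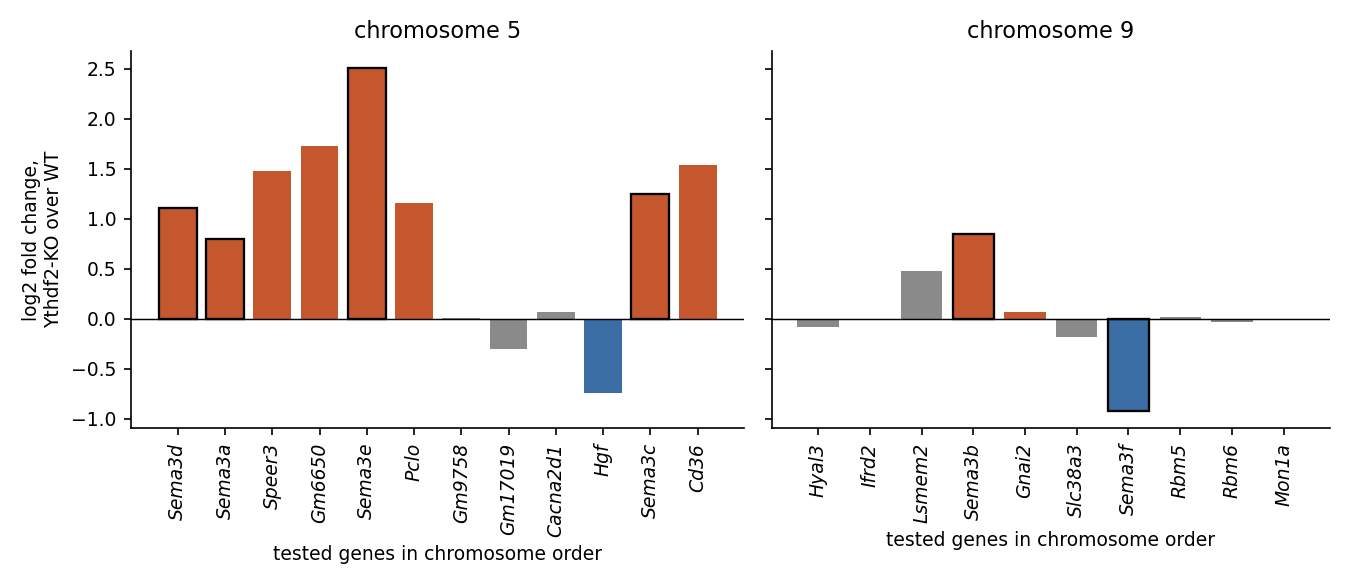
Log2 fold change of tested protein-coding genes in chromosome order around the class 3 semaphorins of chromosomes 5 and 9. Semaphorin bars are outlined, orange and blue bars passed as higher and lower and grey ones did not pass; on chromosome 5 all 4 semaphorins are higher while Hgf is lower, and on chromosome 9 Sema3b and Sema3f point in opposite directions.

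Genes that process semaphorins, bind with them or relay their signal went both ways: of 77 such genes 68 were tested, and 23 rose and 23 fell. These were 33.8% in each direction, beside 24.1% higher and 25.8% lower among all genes tested, and the median log2 fold change was -0.017, against -0.0053 over all tested genes. The shares given for each list below are read against the same background. Of 5 tested proteases that cut semaphorins or their receptors 4 fell (80%) and none rose, and the median log2 fold change was -0.34. Furin, which encodes the protease that activates class 3 semaphorins, fell 1.95-fold, from 744 ± 12.8 to 382 ± 8.99 CPM (SD, n = 3; edgeR adjusted p = 4.35e-35). Adam17 and Adam10, which encode shedding proteases of the cell surface, fell 1.36- and 1.27-fold, and Mmp14, which can release SEMA4D, 1.14-fold. The remaining gene, Pcsk7, did not pass.

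Of 15 tested receptor partners 7 rose (46.7%) and 3 fell (20%), and their log2 fold changes had a median of 0.18. Nrcam, whose product associates with neuropilin-2, rose 4.53-fold, from 9.23 ± 0.412 to 41.8 ± 0.678 CPM, and L1cam, a partner of neuropilin-1, 2.82-fold, from 1.09 ± 0.311 to 3.05 ± 0.473 CPM (SD, n = 3). Ncam1, a neural cell adhesion gene, rose 1.45-fold. The falls were in Itgb1, in Met, a plexin B partner that fell 1.30-fold from 117 ± 3.44 to 89.9 ± 2.26 CPM, and in the VEGF receptor gene Flt1, 3.39-fold lower from 2.10 ± 0.395 CPM (SD, n = 3).

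The other ligands of the neuropilins changed in all 7 cases, 5 downward (71.4%) and 2 upward (28.6%), and their log2 fold changes had a median of -0.74. Vegfc, which encodes the lymphatic growth factor that binds neuropilin-2, fell 5.40-fold, from 39.8 ± 1.23 to 7.35 ± 0.575 CPM, and Vegfa 1.73-fold, from 400.4 ± 9.72 to 232 ± 0.396 CPM (SD, n = 3). Hgf fell 1.67-fold, Pgf 1.71-fold and Tgfb1 1.18-fold. Vegfd rose 1.70-fold to 28.2 ± 0.911 CPM and Vegfb 1.16-fold to 65.5 ± 0.922 CPM (SD, n = 3).

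Of 26 tested plexin effectors and small GTPase regulators, 6 rose (23.1%) and 10 fell (38.5%), and their log2 fold changes had a median of -0.026; the share that rose was close to that of all genes. Rras and Rap1b, which encode GTPases of the kinds that plexins inactivate, fell by 0.58 and 0.39 on the log2 scale, reaching 29.0 ± 0.729 and 153 ± 2.22 CPM (SD, n = 3). Of the other R-Ras and Rap genes in the list, Rap1a fell 1.16-fold, Rras2 rose 1.09-fold and Mras did not pass. Arhgap35, the gene of a GTPase-activating protein, fell 1.25-fold, and Farp1, the gene of an exchange factor bound by class A plexins, rose 1.29-fold. Of 15 tested genes that link semaphorin signals to the skeleton of the cell, 8 rose (53.3%) and 1 fell (6.67%), and their log2 fold changes had a median of 0.064. Crmp1 and Dpysl3, of the collapsin response mediator family named for its part in the SEMA3A response, rose 6.93- and 4.06-fold, from 0.747 ± 0.107 and 1.88 ± 0.322 CPM (SD, n = 3). Mical1 and Mical3, which encode actin-oxidizing enzymes downstream of plexin A, rose 1.70- and 1.44-fold. The fall was in Ssh1, the gene of a cofilin phosphatase, 1.15-fold. Against a minimum fold of 1.2, 19 calls in these lists were lost, among them those of Mmp14, Itgb1, Vegfb, Tgfb1 and Ssh1. At that minimum 11 genes of the lists rose and 16 fell, beside 1912 and 1558 of all 17718 genes tested. With the length and GC offsets, 18 of all 68 tested genes of these lists rose and 34 fell. Of all 17718 genes, 3922 were called higher and 5130 lower with those offsets.

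The motif GGACT, the commonest core of m6A sites, was counted in each member's longest protein-coding GENCODE transcript as a description of sequence. Genes without a coding transcript were given their longest transcript of any kind. The members held a median of 1.22 per kilobase, against 1.01 for 16758 tested genes with a transcript. It was 1.21 per kilobase in members that rose and 1.22 in those that fell. Among the members shown above, Nrp1 held 2.22 per kilobase, Sema7a 1.21, Plxnc1 0.959 and Sema3f 0.884. Methylation itself was not measured in these libraries, and a motif does not show that a site is methylated.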

How the data were processed

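Tools named in the submitters' processing notes are fastp 0.23.2, HISAT2 2.2.1 and featureCounts 2.0.6, with the build GRCm39. The values deposited by the authors are raw counts per gene symbol, and nothing used here states how strand or multi-mapping reads were handled. Counts were tested in R 4.3.3 with edgeR 4.0.16: filterByExpr, TMM factors, a robust quasi-likelihood fit with genotype as the term over all 6 libraries, and Benjamini-Hochberg adjustment over 17718 genes, called under 0.05. CPM are counts scaled by TMM-adjusted library sizes to a common total; a count of 3 was 0.0433 to 0.0540 CPM. The SE of a log2 fold change was its absolute value divided by the square root of the quasi-likelihood F statistic. That statistic uses dispersions moderated over all genes, so the SE is not the spread of 3 libraries alone. The pipeline was tested on simulated data. Alternatives were other scalings and filters, leaving out libraries, a replicate block, DESeq2 1.42.0, limma 3.58.1 voom, a stricter threshold, a minimum fold of 1.2 and length and GC offsets. Lengths, transcripts and promoters came from GENCODE M21 and RefSeq on GRCm38, joined by symbol. All 31 members are accounted for. From each partner list the 4 genes with the smallest adjusted p were named, and all genes in a direction with 5 or fewer calls. Further listed genes of the R-Ras, Rap and collapsin response mediator families were named beside those. Neighbouring genes and single markers were picked for naming with their values in view. The members and lists were chosen with earlier results of these data known.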

Additional observations from a re-analysis of the deposited data

How the results depend on the processing

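Of the 17 members called higher, 16 kept direction and call in each of the alternatives in which they were tested, Sema4b being the exception; of the 7 called lower 4 did, Plxna1, Plxnb3 and Sema4c being the exceptions. A test against a minimum fold of 1.2 (glmTreat) left 16 members higher and 4 lower. It left 11 partner genes higher and 16 lower, and 1912 of all genes higher and 1558 lower. Ythdf2 (log2 fold change -0.29) did not pass this test (edgeR adjusted p = 0.171). A filter at a mean of 5 CPM also left 4 members lower, with 19 members tested. The members' median log2 fold change was 0.468 with upper-quartile factors, 0.466 with no filter, 0.470 with the 5 CPM filter and 0.305 with length and GC offsets. Those offsets turned the direction of Plxnd1 (-0.14) and of the partner genes Trio (-0.19), Mical2 (-0.110) and Gsk3b (-0.014); the cause was not tested. Of all calls, 48.3% were higher with TMM factors and 59.2% with upper-quartile factors. Replicate numbers are shared between genotypes in the titles, but same-numbered libraries did not deviate together (correlations of 0.051, -0.092 and -0.14). With the replicate block 17 members rose and 6 fell, and 8541 genes were called against 8839. At low levels the SE is larger: it was 0.335 for Plxna4 and 0.278 for Sema4g on the log2 scale, neither of which passed, while Sema3e, Sema4d and Sema4f passed from WT levels of 0.438 to 0.550 CPM with larger changes. Sema5b had too few counts to be tested.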
